A study of Mus musculus with 6 samples.

Results

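Angiopoietins, apelin, endocan, the chemokine CXCL12 and the receptors of these and of adrenomedullin form a group of vessel signals that act beside the VEGF family. The 10 genes *Angpt1*, *Angpt2*, *Apln*, *Aplnr*, *Esm1*, *Cxcl12*, *Cxcr4*, *Ackr3*, *Calcrl* and *Ramp2* were taken by name from 54356 genes with transcripts in the data. Earlier results of these data were known when they were chosen. Of the 10, 9 passed the low-count filter of edgeR, set at 10 counts, and were among the 16048 genes tested, and *Esm1* did not pass. The data came from RNA sequencing of E9.5 mouse hearts, a stage at which the heart tube is lined by endocardium and has no coronary vessels of its own yet.

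There were 3 libraries of FlncgKO hearts and 3 of littermate control hearts, all on the C57BL/6 strain. The study made its FlncgKO mice from a floxed *Flnc* allele (Flnc fl/fl) and Sox2Cre, and it describes the knockout as global. The deletion is thus not limited to muscle cells and includes endothelial and blood cells. Treatment was not part of the design, and the labels name control genotype without further alleles. The labels call the tissue whole heart, while the study's methods also mention ventricles taken alone, and neither gives the number of hearts in a library. There were thus n = 3 replicates per group, and the sources used here do not say which embryos or litters stand behind each library. The p-values measure the spread between these libraries, which may be partly technical.

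Libraries held 19208859 to 23123255 estimated counts. *Flnc*, the deleted gene, had a level of 844, 623 and 746 CPM (counts relative to the library total, scaled for RNA composition) in the controls and of 127, 111 and 240.0 CPM in FlncgKO hearts, with replicates 1, 2 and 3 in this order here and below. On the log2 scale it differed by -2.21 with a standard error (SE) of 0.35, and the adjusted p was 0.0656 with edgeR and 1.11e-06 with DESeq2. Cardiomyocyte markers were abundant in every library, at a summed 35580 to 44130 CPM over 12 genes. Libraries also differed in blood cell markers and sex-linked genes, in part along the genotype. Summed platelet and megakaryocyte markers (10 genes) were 20.9 to 30.3 CPM in controls and 112 to 706 CPM in FlncgKO hearts. Summed leukocyte markers (8 genes) were 8.87 to 19.4 and 28.8 to 42.1 CPM, and summed erythroid markers (8 genes) 2785 to 7964 and 6836 to 10970 CPM. The 4 Y-linked genes summed to 117 to 140 CPM in controls, to 80.8 CPM in FlncgKO replicate 1, and to 3.88 and 4.28 CPM in FlncgKO replicates 2 and 3. *Xist*, the RNA of the inactive X chromosome, had 290 to 337 CPM in controls and 807 to 1609 CPM in FlncgKO hearts. The part of these differences in the results below was not tested, apart from a fit with the Y-linked level as a covariate. That level ran largely along the genotype, and only FlncgKO replicate 1 was near the controls. Such a fit rests mostly on that library and cannot separate sex from genotype.

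In vessels and endocardium, ANGPT1 activates the receptor TIE2, encoded by *Tek*, and stabilises the endothelium, while ANGPT2 is released by endothelial cells and antagonises it in many settings. Apelin is a peptide made by sprouting endothelial cells and acts on the G protein-coupled receptor APLNR, which the developing heart also needs for its second ligand, encoded by *Apela*. *Esm1* encodes endocan, a proteoglycan secreted by endothelial tip cells. CXCL12 signals through CXCR4, and ACKR3 takes it up as a scavenger. CALCRL is a receptor for adrenomedullin when it pairs with RAMP2, and this pair is required for vessel and heart development in the embryo.

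The coding sequences shown first are of the ligands that were higher in FlncgKO hearts. The *Apln* coding sequence has 77 codons, and capitals mark its last 13 codons before the stop, which encode the peptide apelin-13.
Apln: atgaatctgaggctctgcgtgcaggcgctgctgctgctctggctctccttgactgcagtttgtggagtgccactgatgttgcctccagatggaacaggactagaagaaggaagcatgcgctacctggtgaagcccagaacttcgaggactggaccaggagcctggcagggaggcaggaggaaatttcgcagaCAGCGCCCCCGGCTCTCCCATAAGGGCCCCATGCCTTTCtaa
The 3 coding transcripts of *Cxcl12* share their first 267 bases, 89 whole codons, and differ only in how they end. The ends are shown from base 253, and capitals mark the bases that only that transcript carries. The names alpha, beta and gamma are those of the encoded CXCL12 forms, with 89, 93 and 119 codons.
Cxcl12-202 (alpha): aaagctttaaacaagTAA
Cxcl12-203 (beta): aaagctttaaacaagAGGCTCAAGATGTGA
Cxcl12-201 (gamma): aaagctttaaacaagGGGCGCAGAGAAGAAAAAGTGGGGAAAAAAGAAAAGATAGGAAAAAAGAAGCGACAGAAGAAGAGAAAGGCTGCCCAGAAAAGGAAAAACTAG

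Upstream sequence was read for the 3 genes with higher levels in every FlncgKO library than in any control library, *Apln*, *Esm1* and *Cxcl12*. Each run is the 250 bases before the RefSeq start of the gene on GRCm38.p6, written 5′ to 3′ on the gene's strand, and capitals mark GGAA, the core of ETS factor sites, on either strand (TTCC).
Apln, chrX:48034854-48035103, minus strand: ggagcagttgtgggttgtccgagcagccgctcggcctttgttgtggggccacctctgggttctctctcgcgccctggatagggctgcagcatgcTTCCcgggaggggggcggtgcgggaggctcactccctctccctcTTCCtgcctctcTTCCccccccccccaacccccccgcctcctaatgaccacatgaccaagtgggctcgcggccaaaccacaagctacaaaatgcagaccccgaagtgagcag
Esm1, chr13:113209409-113209658, plus strand: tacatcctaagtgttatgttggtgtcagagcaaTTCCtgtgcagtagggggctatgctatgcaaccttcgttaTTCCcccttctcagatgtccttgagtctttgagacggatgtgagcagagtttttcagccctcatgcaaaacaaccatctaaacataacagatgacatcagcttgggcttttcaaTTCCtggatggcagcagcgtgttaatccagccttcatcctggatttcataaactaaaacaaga
Cxcl12, chr6:117168285-117168534, plus strand: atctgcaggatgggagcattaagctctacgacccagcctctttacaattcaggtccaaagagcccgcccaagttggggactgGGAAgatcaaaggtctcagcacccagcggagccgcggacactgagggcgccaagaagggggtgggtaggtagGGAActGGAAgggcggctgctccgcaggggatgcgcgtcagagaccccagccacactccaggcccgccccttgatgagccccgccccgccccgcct
Each of the 3 windows held 3 matches to GGAA. Of 32851 upstream windows of the same length, 93.4% held it. ACGTG, a core of hypoxia response elements, was searched on both strands too, had no match in the windows of the 6 genes of the group in the table, and was in 16.6% of all windows. TATAAA was in 12.4% of all windows and in none of the 3 shown, and among the 6 *Cxcr4* had 2 matches and *Ackr3* 1. None of these motifs contains another, and a match or its absence says only which letters stand in the window.

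Of the vessel signal genes, the apelin ligand stood out in FlncgKO hearts, with an 8.50-fold higher level, while its receptor had means of 8.62 and 8.53 CPM in control and FlncgKO hearts. The mean of *Cxcl12* was 1.70-fold higher and that of *Angpt1* 1.30-fold lower, with no overlap between groups, and neither passed the threshold of edgeR's test. *Esm1* was detected in FlncgKO hearts and had 0 counts in every control library. *Aplnr*, *Calcrl*, *Ramp2*, *Cxcr4*, *Ackr3* and *Angpt2* had overlapping groups. By the quasi-likelihood test of edgeR, with p-values adjusted by Benjamini-Hochberg over 16048 genes, 1 of the 9 members tested was called higher (*Apln*), against 1.06% of all genes. None was called lower, against 0.249% of all genes, and before adjustment 2 members were higher and 1 (*Angpt1*) lower at a p under 0.05, against 2136 and 1419 of all genes. A fit with the replicate number as a block gave the same 1 and 0 calls, against 3.19% and 0.748% of all genes. DESeq2 called 2 members higher (*Apln* and *Cxcl12*), against 6.17% of all genes, and 0 lower, against 2.29%. The members were chosen with earlier results of these data known, so these counts are a description and not independent support. The median log2 fold change (FlncgKO minus control) was -0.03 over the 9 members and 0.01 over all genes tested. Groups did not overlap for 2 tested members that were higher and 1 that was lower, against 15.7% and 14.1% of all genes. In bulk hearts, fewer cells of a type and less RNA per cell cannot be told apart.

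**Figure D1:**
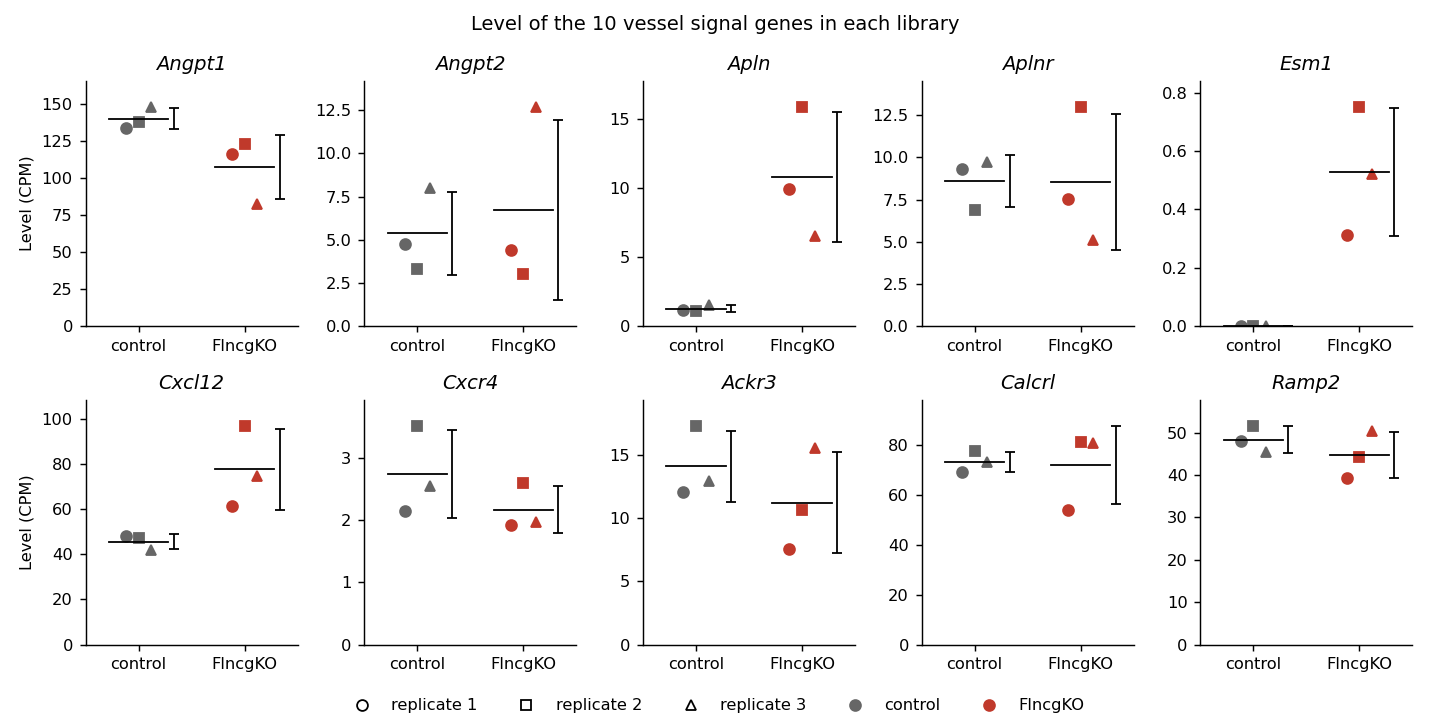
Level of each of the 10 genes in CPM (vertical axis from 0, own scale per gene) in 3 control (grey) and 3 FlncgKO (red) libraries, with the mean as a line, the SD as a bar and the replicate number as the point's shape. *Apln* and *Cxcl12* were higher and *Angpt1* lower in all 3 FlncgKO libraries than in all 3 controls, *Esm1* was at 0 in the controls, and the groups of the other 6 genes overlapped.

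Among the angiopoietins, *Angpt1* (chr15:42424723-42676977, minus strand, GRCm38) was the abundant one. The controls had 134, 138 and 148 CPM and the FlncgKO hearts 116, 123 and 82.4 CPM. All FlncgKO libraries lay below all controls, and replicate 3 was the lowest. The means were 140 ± 7.07 and 107 ± 21.7 CPM (SD, n = 3 each), and the log2 fold change was -0.38 (SE 0.15, 95% interval -0.74 to -0.03). It missed the threshold in edgeR's test (adjusted p = 0.201) and in DESeq2 (adjusted p = 0.0567), and the adjusted p ranged from 0.0245 to 1.00 over all fits. A strand-specific kit was used, and the antisense gene *Gm17473*, which shares 737 exon bases with *Angpt1*, had 0.73 to 1.45 CPM.

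*Angpt2* (chr8:18690263-18741562, minus strand) lies inside *Mcph1* on the other strand and shares no exon bases with it. It had 4.76, 3.33 and 8.02 CPM in the controls and 4.43, 3.00 and 12.7 CPM in FlncgKO hearts, so replicate 3 was the highest in both groups and the groups overlapped. The log2 fold change was 0.31 with a 95% interval from -1.28 to 1.91 (adjusted p = 0.817), an interval that allows a change of over 2-fold either way. Per length, in TPM, the transcript share per unit length, *Angpt1* was 26.1, 42.3 and 18.4 times as high as *Angpt2* in the controls and 26.9, 40.9 and 6.70 times in FlncgKO hearts.

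The 6 other genes of the angiopoietin-Tie axis were all tested, and edgeR called 0 higher and 0 lower, against 1.06% and 0.249% of all genes. Before adjustment 2 were higher and 2 lower at a p under 0.05, beside 2136 and 1419 of 16048 genes. *Tek*, the TIE2 receptor, had 101, 123 and 102 CPM in the controls and 71.0, 89.7 and 87.7 CPM in FlncgKO hearts. Its groups did not overlap, with a log2 fold change of -0.40 (SE 0.11, adjusted p = 0.108). With the replicate number as a block its adjusted p was 0.0326, and DESeq2 gave 0.0132. *Tek* was thus 1.32-fold lower, while 19 of the 22 endothelial and endocardial markers, a list that includes *Tek*, had positive log2 fold changes. Their median was 0.37, against 0.01 over all genes tested. Of these 22, edgeR called 2 higher and 0 lower, against 1.06% and 0.249% of all genes. The other markers with negative log2 fold changes were *Npr3* (-0.58) and *Nfatc1* (-0.10), and *Npr3* also had no overlap between groups. *Tie1*, the orphan partner of TIE2, had 119 ± 9.30 CPM in controls and 133 ± 8.38 CPM in FlncgKO hearts (SD, n = 3; adjusted p = 0.268). *Ptprb*, the endothelial phosphatase that restrains TIE2, had a log2 fold change of 0.47 (SE 0.18), with an adjusted p of 0.212 unblocked and 0.0425 with the block. *Dok2*, an adaptor that TIE2 recruits and that blood cells also use, had 1.54 to 1.79 CPM in the controls and 7.15, 6.84 and 2.66 CPM in FlncgKO replicates 1, 2 and 3 (log2 fold change 1.70, SE 0.37). Its adjusted p was 0.0721 in edgeR and 0.00140 in DESeq2. The order of *Dok2* over the FlncgKO libraries was that of the summed platelet markers, 706, 440 and 112 CPM, and its part was not tested. *Svep1*, a matrix protein that binds TIE1, had a log2 fold change of -0.29 (SE 0.11, adjusted p = 0.195).

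*Apln* (chrX:48025146-48034853, minus strand) had 25, 23 and 32 estimated counts in the controls and 222, 360 and 126 in FlncgKO hearts. In CPM its level was 1.14, 1.11 and 1.55 against 9.93, 15.9 and 6.57. The lowest FlncgKO library was above the highest control, replicate 2 was the highest, and the means were 1.27 ± 0.243 and 10.8 ± 4.72 CPM (SD, n = 3 each). The log2 fold change was 3.09 (SE 0.36, 95% interval 2.25 to 3.93), with an adjusted p of 0.031 from edgeR and 1.57e-13 from DESeq2. Leaving out control replicate 1, 2 or 3 or FlncgKO replicate 1 gave log2 fold changes of 3.02, 3.00, 3.25 and 3.14 in edgeR. The adjusted p in edgeR was then 0.197, 0.192, 0.0543 and 0.0563. In these fits edgeR called 1, 1, 95 and 24 of all genes higher, against 170 with all libraries. Without FlncgKO replicate 2 or 3 the log2 fold change was 2.70 and 3.34, the range over all fits. The adjusted p in edgeR was then 0.046 and 0.000608, with 37 and 989 of all genes called higher. *Apln* is X-linked. With the Y-linked level as a covariate, which ran largely along the genotype, its log2 fold change was 2.91. Its adjusted p was then 0.211 in edgeR, which called 0 of 16048 genes in that fit, and 0.00108 in DESeq2.

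The receptor gene *Aplnr* (chr2:85136225-85139923, plus strand) had overlapping groups. It had 9.29, 6.85 and 9.71 CPM in the controls and 7.51, 12.97 and 5.11 CPM in FlncgKO hearts, and the FlncgKO values spread to both sides of the controls. Its log2 fold change was -0.01 with a 95% interval from -0.85 to 0.83 (adjusted p = 0.989). The ratio of ligand to receptor in TPM, chosen after the values were seen, was 0.148, 0.195 and 0.192 in the controls and 1.58, 1.47 and 1.54 in FlncgKO hearts. Within FlncgKO hearts the ratio varied far less than either gene, both of which were highest in replicate 2 and lowest in replicate 3. *Apela*, the other ligand of the receptor, had 2.01, 1.98 and 1.45 CPM in controls and 1.03, 0.618 and 1.51 CPM in FlncgKO hearts (log2 fold change -0.79, SE 0.34, adjusted p = 0.231), and the groups overlapped through replicate 3.

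*Esm1* (chr13:113209659-113218098, plus strand) had 0 estimated counts in each control library and 7, 17 and 10 in FlncgKO replicates 1, 2 and 3, which are 0.31, 0.75 and 0.52 CPM. Against a floor of 3 counts over the control libraries together (0.0474 CPM), the pooled FlncgKO level of 0.53 CPM was at least 11.2-fold higher. With 34 counts in all it failed the filter for low counts, so it has no test in the comparison as fixed. Without the filter its adjusted p was 0.0084 in edgeR. In the edgeR fits without 1 library that let the gene pass, the adjusted p was 0.0872 to 0.216. *Esm1* entered each of these fits only through its FlncgKO counts, so these p-values add no independent support. *Gzmk*, which overlaps it on the other strand, had 0 CPM in every library.

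**Figure D2:**
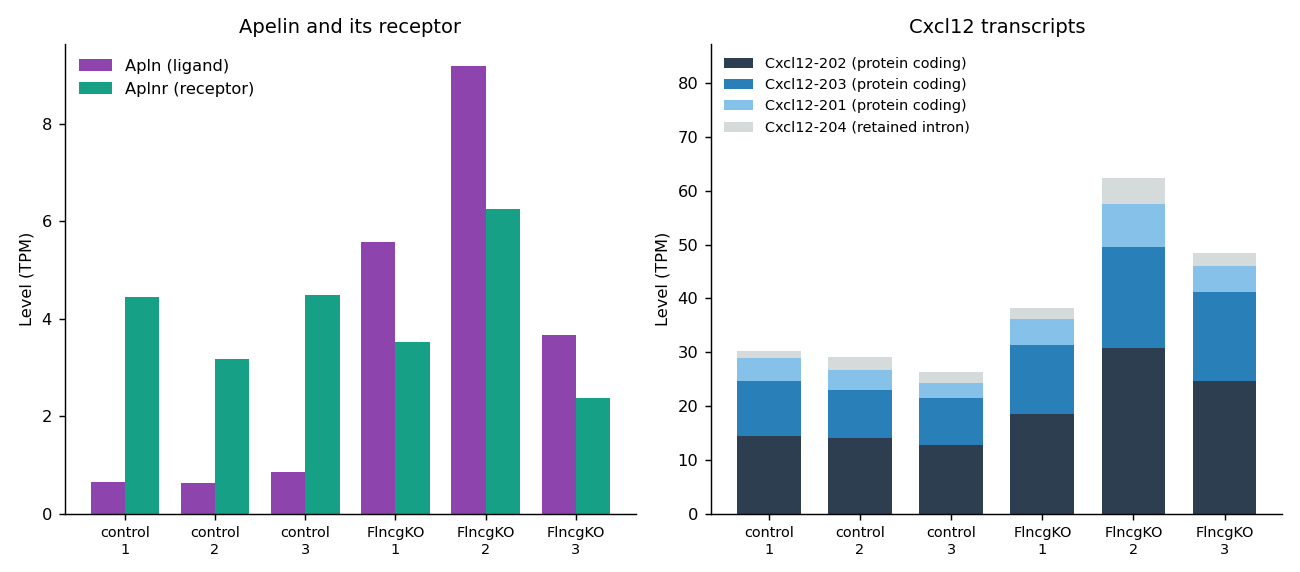
Left, TPM of *Apln* and *Aplnr* in each library (bars from 0): the ligand was below the receptor in the 3 controls and above it in the 3 FlncgKO libraries. Right, TPM of the 4 *Cxcl12* transcripts stacked per library, with a higher total in FlncgKO hearts and similar shares of each transcript.

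*Cxcl12* (chr6:117168535-117181367, plus strand) had 47.9, 47.0 and 42.0 CPM in the controls and 61.4, 97.0 and 74.8 CPM in FlncgKO hearts. All FlncgKO libraries were above all controls, with replicate 2 the highest, and the means were 45.6 ± 3.20 and 77.7 ± 18.0 CPM (SD, n = 3 each). The log2 fold change was 0.77 (SE 0.17, 95% interval 0.36 to 1.18). The call depended on the tool, with an adjusted p of 0.0814 in edgeR and 9.01e-05 in DESeq2, and a range from 2.82e-07 to 0.977 over all fits. With the Y-linked covariate, which ran largely along the genotype, the log2 fold change was 0.35 and neither tool called it.

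The 3 coding forms of *Cxcl12* whose ends are printed above overlapped between groups in their shares of the gene's TPM. The alpha transcript held 48.2% ± 0.253 of it in controls and 49.6% ± 1.36 in FlncgKO hearts, the beta transcript 32.5% ± 1.49 and 32.4% ± 2.20, and the gamma transcript 12.5% ± 1.60 and 11.9% ± 1.79 (SD, n = 3 each). In an exact two-sided permutation test the p was 0.3, 0.9 and 0.7. Reads from the shared coding bases fit all 3 forms, so their split rests on salmon's estimate. Over 11 transcripts of 5 members that could be compared, 1 had groups that did not overlap, *Calcrl*-203, a transcript without a coding sequence, with 16.7% ± 3.91 of the gene's TPM in controls and 23.7% ± 1.75 in FlncgKO hearts. Its exact two-sided permutation p was 0.1, the smallest that 3 against 3 allow, and 0.962 after Benjamini-Hochberg adjustment over the 11. The main coding transcript *Calcrl*-201 held 71.7% ± 5.15 and 68.6% ± 3.27.

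For the receptors of CXCL12 the groups overlapped. *Cxcr4* (chr1:128588199-128592293, minus strand), the signalling receptor, had 2.15, 3.52 and 2.56 CPM in controls and 1.92, 2.60 and 1.98 CPM in FlncgKO hearts, on 38 to 73 counts per library. Its log2 fold change was -0.34 (95% interval -0.92 to 0.25, adjusted p = 0.477). *Ackr3* (chr1:90203980-90216751, plus strand), the scavenger, had 12.1, 17.3 and 12.9 CPM in controls and 7.56, 10.6 and 15.5 CPM in FlncgKO hearts, with a log2 fold change of -0.33 (95% interval -1.01 to 0.34, adjusted p = 0.537). With the Y-linked covariate, which ran largely along the genotype, the log2 fold change of *Ackr3* was -0.98 in both tools. Its adjusted p was then 0.572 in edgeR and 0.398 in DESeq2. FlncgKO replicates 1 and 2 were below every control for *Ackr3*, and replicate 3 lay between the control values. The TPM ratio of *Cxcl12* to *Cxcr4* was 11.5, 6.52 and 9.27 in controls and 17.5, 18.8 and 18.1 in FlncgKO hearts, and that of *Cxcl12* to *Ackr3* was 3.28, 2.42 and 2.88 and 6.70, 8.41 and 4.79. These ratios were also chosen after the values were seen, and the groups did not overlap in either.

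Of 5 other genes around CXCL12, 4 were tested, and edgeR called 0 higher and 0 lower, against 1.06% and 0.249% of all genes. DESeq2 called 1 higher (*Mif*), against 6.17%. Before adjustment edgeR had 1 higher and 1 lower at a p under 0.05, beside 2136 and 1419 of 16048 genes. *Mif*, a cytokine that also binds CXCR4, had 350 ± 14.5 CPM in controls and 409 ± 26.8 CPM in FlncgKO hearts (SD, n = 3; log2 fold change 0.22, SE 0.06, adjusted p = 0.1003). *Dpp4*, the peptidase that inactivates CXCL12, had 5.44, 7.05 and 6.47 CPM in controls and 2.82, 4.81 and 4.69 CPM in FlncgKO hearts. Its groups did not overlap, at a log2 fold change of -0.62 (SE 0.23, adjusted p = 0.174). *Cd74*, a receptor of MIF on leukocytes, and *Ackr1*, a chemokine scavenger, differed by 0.29 and -0.04 on the log2 scale, at an adjusted p of 0.906 and 0.960.

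The adrenomedullin receptor genes also had overlapping groups, and *Ramp2* had the narrowest interval of the 9 members tested. *Calcrl* (chr2:84330626-84425411, minus strand) had 69.2, 77.4 and 73.1 CPM in controls and 53.8, 81.3 and 80.7 CPM in FlncgKO hearts. FlncgKO replicate 1 was below every control and the other 2 were above, and the log2 fold change was -0.03 (95% interval -0.42 to 0.37, adjusted p = 0.945). *Ramp2* (chr11:101246028-101259546, plus strand) had 47.9, 51.6 and 45.3 CPM in controls and 39.4, 44.2 and 50.3 CPM in FlncgKO hearts, with a log2 fold change of -0.11 (95% interval -0.34 to 0.11, adjusted p = 0.527). Its annotated exons share 1103 bases with *Vps25* on the same strand (50.8 to 54.3 CPM), so the split of reads between these 2 genes is uncertain. The TPM ratio of *Ramp2* to *Calcrl* was 2.88 to 2.95 in controls and 2.99, 2.18 and 2.32 in FlncgKO hearts.

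Of 7 other genes for ligands and receptor parts of the adrenomedullin and CGRP family, 6 were tested and 0 were called by edgeR in either direction, and before adjustment 3 were higher and 0 lower at a p under 0.05, beside the 2136 and 1419 of all genes. With the replicate block 2 were called higher, *Adm2* and *Calcr*, against 3.19% of all genes, and DESeq2 called 2 higher, against 6.17%. Both genes had 8 to 17 counts in the controls and passed the low-count filter only through the FlncgKO libraries, where they were high, so these 2 calls support nothing about the list. *Adm2*, which encodes the peptide intermedin, had 0.595, 0.386 and 0.531 CPM in controls and 2.37, 6.18 and 1.98 CPM in FlncgKO hearts, so every FlncgKO library was above every control. Its log2 fold change was 2.79 (SE 0.50), with an adjusted p of 0.0501 unblocked and 0.0352 with the block. *Adm*, adrenomedullin itself, had 20.3, 17.6 and 40.2 CPM in controls and 32.9, 48.4 and 52.8 CPM in FlncgKO hearts, where control replicate 3 lay above FlncgKO replicate 1 (log2 fold change 0.78, SE 0.39, adjusted p = 0.318). Within equal replicate numbers *Adm* was higher in all 3 pairs, and with the block its adjusted p was 0.149 in edgeR and 0.00193 in DESeq2. *Calcr*, the calcitonin receptor, had 0.366, 0.434 and 0.821 CPM and 0.939, 1.81 and 2.82 CPM (log2 fold change 1.76, adjusted p = 0.0983, 0.0312 with the block). *Ramp1*, which makes CALCRL a CGRP receptor, had 12.2 ± 2.36 and 17.1 ± 0.943 CPM (SD, n = 3; log2 fold change 0.48, adjusted p = 0.110).

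*Apln* and *Esm1* are known as genes of endothelial tip cells, the leading cells of a sprout, and 17 other genes known from tip cells were set beside them. The list was chosen with earlier results of these data known, so its counts are a description and not independent support. All 17 were tested, and edgeR called 5 higher and 0 lower, against 1.06% and 0.249% of all genes. Before adjustment 14 were higher and 0 lower at a p under 0.05, against 2136 and 1419 of the 16048 genes. With the replicate block 8 were called higher (3.19% of all genes), and with DESeq2 10 (6.17%). In 12 of 17 the groups did not overlap, all higher, against 15.7% of all genes. Of 8 genes used by all endothelial cells, 5 had groups without overlap, all higher, and 5 were higher at a p under 0.05 before adjustment. Of the same 8, edgeR called 0 higher, 3 with the replicate block, and DESeq2 called 5. The median log2 fold change of the tip-cell list was 0.47, against 0.01 over all genes and 0.51 over these 8 genes. *Pdgfb*, the ligand that draws pericytes to vessels and that platelets also hold, had 3.61, 4.10 and 3.82 CPM in controls and 27.0, 27.9 and 15.02 CPM in FlncgKO hearts (log2 fold change 2.60, SE 0.25, adjusted p = 0.031). *Kcne3*, a potassium channel subunit, had 0.412, 0.386 and 0.386 CPM and 4.11, 9.09 and 2.24 CPM (log2 fold change 3.69, SE 0.56, adjusted p = 0.0411). With 8 to 9 counts in the controls *Kcne3* passed the filter only through the FlncgKO libraries. With 10 counts required in every library it was not tested. Its call is among the counts above and supports nothing about the list. *Cd34*, a sialomucin of endothelial and blood progenitor cells, rose from 53.4 ± 4.43 to 88.5 ± 8.16 CPM (log2 fold change 0.73, SE 0.09, adjusted p = 0.031). The basement membrane collagen genes *Col4a1* and *Col4a2* rose by 0.59 and 0.55 on the log2 scale (adjusted p = 0.0372 each), from means of 911 and 537 CPM to 1375 and 787 CPM. The remaining 12 did not pass in edgeR, the nearest being *Igfbp3* with a log2 fold change of 2.17 (adjusted p = 0.0501). DESeq2 gave *Igfbp3* an adjusted p of 7.76e-18 and called it. Over all 36 related genes, of which 34 were tested, the 5 called higher became 11 with the replicate block. The 0 called lower became 1 (*Tek*). Over all genes the block moved the calls from 170 to 512 higher and from 40 to 120 lower. Without control replicate 1, control replicate 2 or FlncgKO replicate 1, edgeR called none of them. Of all genes those fits called only 1, 1 and 24 higher and 0, 0 and 10 lower.

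**Figure D3:**
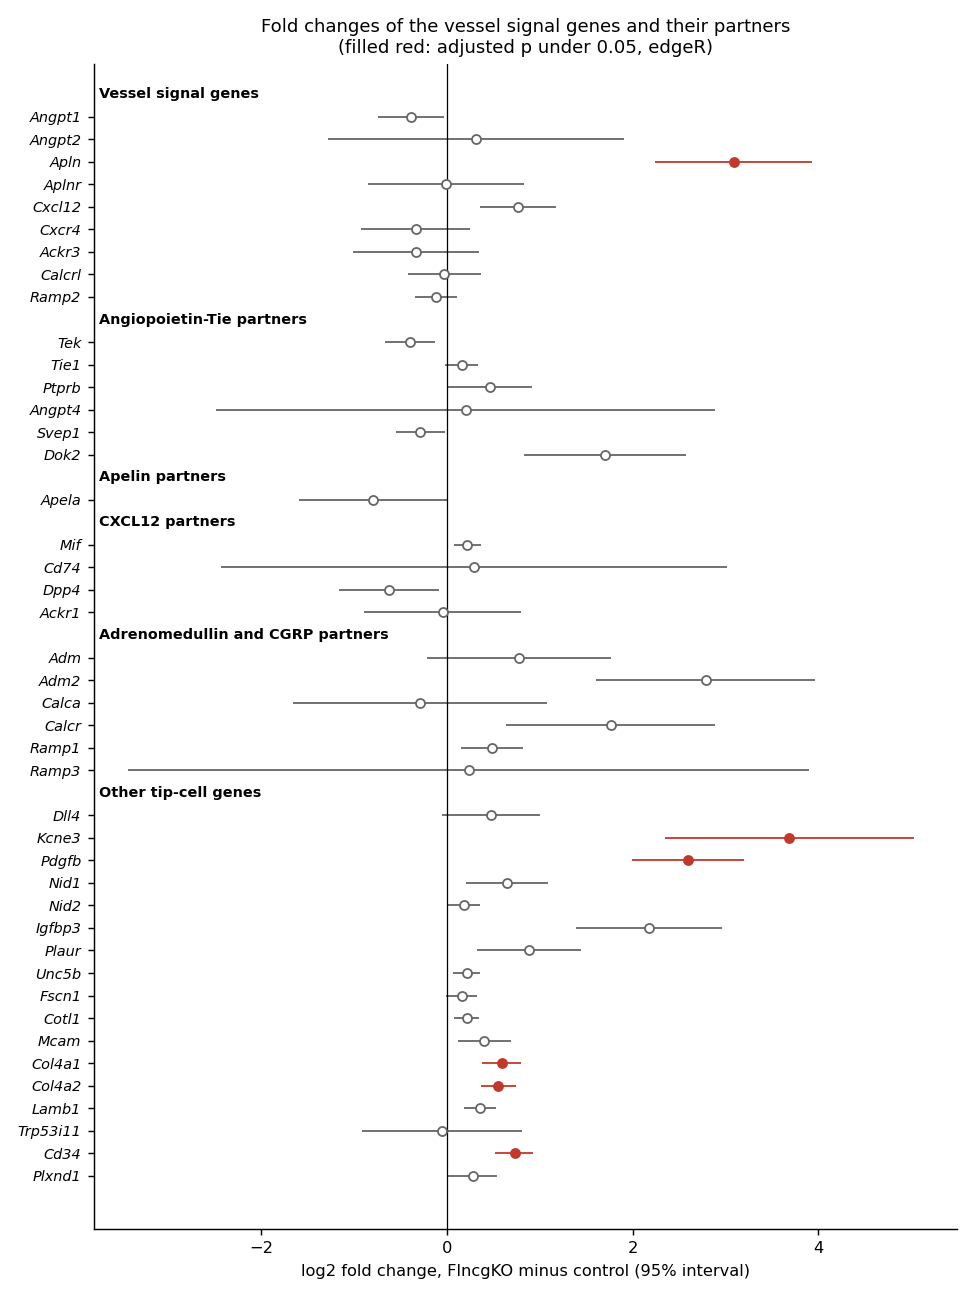
Log2 fold change, FlncgKO minus control, with its 95% interval from edgeR, for the 9 tested vessel signal genes and the 34 tested related genes in their lists, filled red where the adjusted p was under 0.05. *Apln* is the one filled point of the vessel signal genes, and the other 5 are in the list of other tip-cell genes. That list was chosen with earlier results of these data known, and *Kcne3* passed the low-count filter only through the FlncgKO libraries.

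Most of the 10 genes are used by endothelial cells, so each was also set against 8 genes that all endothelial cells use (*Pecam1*, *Cdh5*, *Esam*, *Egfl7*, *Cldn5*, *Erg*, *Robo4* and *Clec14a*). The mean log2 CPM of these 8 was 4.20, 4.22 and 4.34 in controls and 4.59, 4.98 and 4.72 in FlncgKO hearts, so the reference itself was 0.51 higher with no overlap between groups. Summed endothelial and endocardial markers (22 genes) were 1350 to 1595 CPM in controls and 1693 to 2149 CPM in FlncgKO hearts, while summed mural and mesenchymal markers (10 genes) were 4051 to 4186 and 4063 to 4311 CPM and epicardial markers (5 genes) 72.3 to 101 and 69.8 to 88.3 CPM. Relative to the reference, *Apln* was 2.50 higher on the log2 scale, and groups did not overlap. *Angpt1* was lower by 0.91, *Ackr3* by 0.88, *Cxcr4* by 0.83, *Ramp2* by 0.63 and *Calcrl* by 0.56, each without overlap. The difference of *Cxcl12* was 0.23, with overlapping groups, and *Aplnr* and *Angpt2* overlapped too, at differences of -0.61 and -0.37.

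Each of the 6 differences without overlap had an exact two-sided permutation p of 0.1, the smallest that 3 against 3 allow, and 0.15 after adjustment over the 9. A reference that is itself higher lowers most genes against it. Of 15933 genes with a value in every library, 65.4% were lower without overlap by the same measure and 2.3% higher, against 5 and 1 of the 9 members. The share of members below the reference was thus near that of all genes. *Angpt1* is also made by muscle and mesenchymal cells and *Cxcl12* by stromal cells, and for these a level per endothelial RNA is a scale and not a level per cell. With *Cdh5* alone as the reference, *Cxcl12* was 0.43 higher without overlap and the other calls of overlap stayed as they were.

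**Figure D4:**
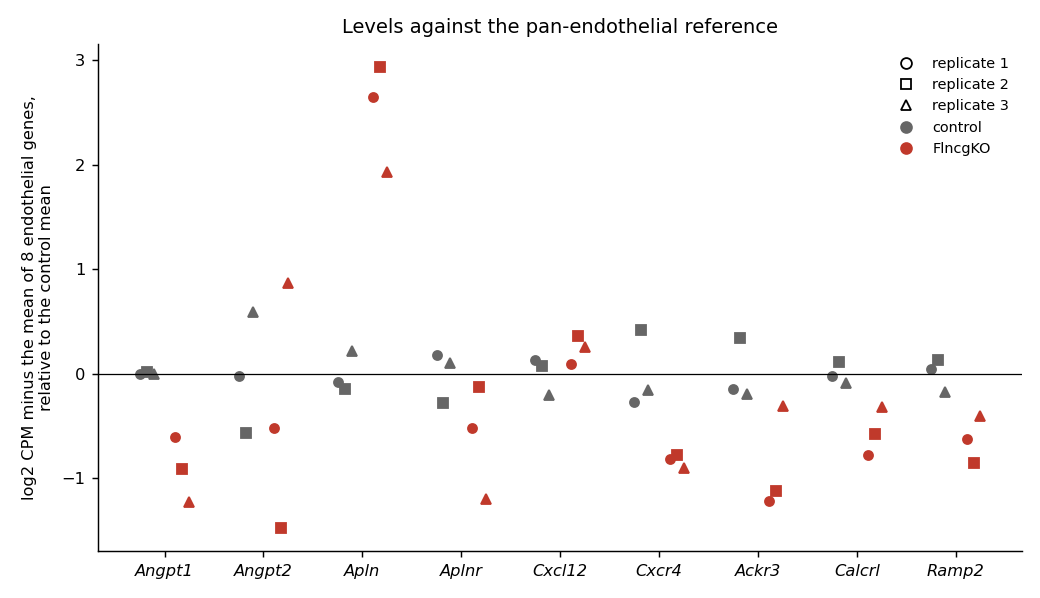
Log2 CPM of each tested gene minus the mean log2 CPM of 8 endothelial genes, shown relative to the control mean (0), for 3 control (grey) and 3 FlncgKO (red) libraries with the replicate number as the shape. *Apln* lies above and *Angpt1*, *Cxcr4*, *Ackr3*, *Calcrl* and *Ramp2* lie below the controls in every FlncgKO library. On the lower side the same held for 65.4% of all genes.

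Per length, the order of mean levels in control hearts was *Ramp2* (118 TPM), *Angpt1* (61.6), *Calcrl* (40.3), *Cxcl12* (28.6), *Ackr3* (10.2), *Aplnr* (4.04), *Cxcr4* (3.31), *Angpt2* (2.40), *Apln* (0.714) and *Esm1* at 0 TPM. Neighbours overlapped between libraries only for *Aplnr* with *Cxcr4* and *Cxcr4* with *Angpt2*. In FlncgKO hearts *Ramp2* was again first (104 TPM), followed by *Cxcl12* (49.7), *Angpt1* (47.9) and *Calcrl* (42.9), and among the latter 3 each neighbouring pair overlapped. *Apln*, at 6.14 TPM, stood sixth, behind *Ackr3* (7.75) and before *Aplnr* (4.05), *Angpt2* (2.92) and *Cxcr4* (2.72). It overlapped both of its neighbours, and so did *Aplnr* with *Angpt2* and *Angpt2* with *Cxcr4*. *Esm1* was last at 0.512 TPM.

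The genes most like *Apln*, *Cxcl12* and *Angpt1*, the 3 with the largest fitted log2 fold changes of the 9 members tested (which leaves out *Esm1*), were found by Pearson's r of log2 CPM over the 6 libraries, among 11273 genes of at least 5 CPM. Nearest to *Apln* were *Tfrc* (r = 0.999), *P4ha2* (0.998) and *Msrb3* (0.997), with levels of 323 to 338, 47.1 to 54.9 and 92.4 to 93.2 CPM in controls and 424 to 469, 130 to 213 and 104 to 110 CPM in FlncgKO hearts. Nearest to *Cxcl12* were *Lemd3* (0.998), *Slc3a2* (0.997) and *Pced1a* (0.994), and nearest to *Angpt1* were *Cetn2* (0.979), *Epm2aip1* (0.978) and *Gnao1* (0.978). With 6 libraries in 2 groups such values are common. There were 847 genes with r over 0.9 for *Apln*, 551 for *Cxcl12* and 111 for *Angpt1*.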

How the data were processed

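RNA was extracted from E9.5 hearts and sequenced as stranded polyadenylated libraries. The authors quantified GENCODE M22 transcripts (GRCm38.p6) with salmon, whose version is not given in the sources used here, and the deposited values are expected counts and TPM for 140658 transcripts per library. Transcripts were joined to genes through GENCODE M21, also GRCm38, and 0.37% had no gene there and were left out. For each gene the transcripts' estimated counts were added up and rounded. Levels between libraries are CPM scaled by TMM, a factor for RNA composition. The test was the robust quasi-likelihood test of edgeR 4.0.16 (R 4.3.3) after filterByExpr at 10 counts, with p-values adjusted by Benjamini-Hochberg, a threshold of 0.05 and log2 fold changes as FlncgKO minus control. DESeq2 1.42.0 was an alternative, as the submitters' notes name DESeq2 1.22.2. The scripts were tested on simulated data.

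The 10 members, the related lists, the marker lists and the tests were chosen with earlier results of these data known. The genes named are all 10 members, related genes past the threshold, up to 4 per related list with the smallest p, and the 3 genes most like each of the 3 tested members with the largest absolute log2 fold changes, which leaves out *Esm1*. Other genes named (*Tie1*, *Flnc*, *Xist*, overlapping genes and markers) and the TPM ratios were added with their values seen. Upstream sequences come from RefSeq (6 of 10 members matched) and coding sequences from the reference transcripts. Deviations from the group mean correlated between libraries of the same replicate number at r = 0.106, 0.716 and 0.665 over 11273 genes. Those of different numbers were -0.712 to 0.183, and control replicate 1 correlated more with FlncgKO replicate 2 (0.183) than with replicate 1. Equal numbers were read as pairs because each pair was over 0.1, a reading that is weak for pair 1, and the labels do not state a shared litter. Values with the number as a block stand beside results they change. Alternatives were other scalings and filters, transcript length offsets, a covariate from 4 Y-linked genes, DESeq2, and leaving out each library. Alternatives combining DESeq2 with the block, the covariate or a library left out were added after seeing the data. Intervals cover the spread between these libraries.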

Additional observations from a re-analysis of the deposited data

How the results depend on the processing

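The number of members called higher, 1 in the comparison as fixed, was 2 without the filter (*Apln* and *Esm1*). *Esm1* entered that fit only through its FlncgKO counts. The number was 0 with the Y-linked covariate, 2 with DESeq2 and 2 with DESeq2 and the replicate block. It was 0 to 1 in the edgeR fits that left out 1 library and 2 in each such DESeq2 fit. The number called lower, 0, was 1 with DESeq2 and the Y-linked covariate (*Calcrl*, log2 fold change -0.53, adjusted p = 0.0122, with a range from 0.0122 to 0.997 over all fits) and 1 with DESeq2 without FlncgKO replicate 2 or 3 (*Angpt1*). Related genes called higher, 5, were 8 without the filter, 11 with the replicate block, 0 with the Y-linked covariate, 14 with DESeq2, 15 with DESeq2 and the block, and 0 to 13 in edgeR with 1 library left out. DESeq2 called 9, 11 and 13 without control replicate 1, 2 and 3, and 11, 9 and 16 without FlncgKO replicate 1, 2 and 3. Related genes called lower, 0, were 1 with the replicate block, 1 with DESeq2, alone or with the Y-linked covariate or the block, 0 to 1 in edgeR with 1 library left out, and 0 to 3 in DESeq2. The replicate block changed no call of a member, and its adjusted p for *Apln* was 0.0211. Transcripts whose shares did not overlap numbered 1 to 4 with 1 library left out, with 4 reached without FlncgKO replicate 1. Members without overlap against the endothelial reference numbered 6 to 7.

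*Angpt2* turned to -0.39 with the Y-linked covariate in edgeR and in DESeq2, ranged from -0.53 to 0.72 in edgeR with 1 library left out, lowest without FlncgKO replicate 3, and was -0.54 in DESeq2 without that library. *Aplnr* ranged from -0.45 to 0.25 in edgeR with 1 library left out, and in DESeq2 it was 0.038, 0.075, 0.065 and 0.24 without control replicate 1, control replicate 3, FlncgKO replicate 1 and FlncgKO replicate 3. *Calcrl* turned to 0.073 with length offsets, ranged from -0.12 to 0.14 in edgeR with 1 library left out, and was 0.006 and 0.14 in DESeq2 without control replicate 2 and without FlncgKO replicate 1. The causes were not tested. The direction of *Apln*, *Cxcl12*, *Angpt1*, *Cxcr4*, *Ackr3* and *Ramp2* was kept in all 22 alternatives. In edgeR the Y-linked covariate moved *Ackr3* to -0.98, *Calcrl* to -0.53, *Cxcr4* to -0.53, *Ramp2* to -0.32, *Aplnr* to -0.28, *Angpt1* to -0.25 and *Cxcl12* to 0.35, none called. With it edgeR called 0 of 16048 genes, and 906 were higher and 391 lower at a p under 0.05 before adjustment. DESeq2 with this covariate called 239 higher and 24 lower. The covariate ran largely along the genotype, so these fits cannot separate sex from genotype. *Esm1*, *Apln* in controls and *Cxcr4* rest on few counts.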
